A study of Homo sapiens with 6 samples.

Results

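The genes described here belong to the integrated stress response and the unfolded protein response, 2 linked programmes by which a cell answers a shortage of amino acids or an overload of unfolded protein in the endoplasmic reticulum (ER). Members were chosen by name from a list of 42 ATF4 targets, amino acid supply genes, ER stress sensors and ER quality control genes, with chaperones named HSPA or DNAJ left out. No measured value enters that rule, but the list was drawn up with earlier results of these data known. Of these, 41 had a row among the 28092 rows of the table, and all 41 passed the filter on low counts, as did 19558 genes in all. FGF21 was not analysed here. The cells were cardiomyocytes grown out of the established embryonic stem cell line H9, of human origin, and polyadenylated RNA was sequenced from 3 ADPRHL1 knockout samples (KO-CMs) and 3 wild-type samples (WT-CMs), all collected within 3 days of re-seeding. The study asked how loss of ADPRHL1, a heart-enriched pseudoenzyme of the ADP-ribosylhydrolase family, disturbs focal adhesions. No treatment and no other allele is named in the labels, and they do not say how the knockout was made, whether it was 1 clone, or whether replicates grew as separate cultures. A p-value here therefore covers the spread among 3 and 3 libraries, and that spread may be technical.

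As background, 3 sensors sit in the ER membrane. PERK, the product of EIF2AK3, phosphorylates the initiation factor eIF2alpha, which lowers general translation but raises translation of the transcription factor ATF4; other kinases reach the same step when amino acids or haem are short. IRE1, the product of ERN1, splices the mRNA of XBP1 into a form that encodes an active transcription factor. ATF6 is cut in the Golgi to release its own transcription factor domain. ATF4 is known for inducing genes of amino acid synthesis and import, and XBP1 and ATF6 for inducing chaperones, folding enzymes and the machinery of ER-associated degradation. None of phosphorylation, XBP1 splicing and ATF6 cleavage is measured by counts per gene.

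Short promoter stretches are shown first, because the letters that these factors are known to bind are written in them. They come from RefSeq windows on GRCh38.p14 that run from 250 bases before to 50 bases after an annotated start, read 5′ to 3′ on the gene's strand, and 35 of the 41 members had such a window. Capitals mark a searched motif, on either strand, with 20 bases on each side. The first set holds the ER stress element, the letters CCAAT and CCACG with 9 bases of any kind between them, which ATF6 is known to bind together with NF-Y.
XBP1 (chr22:28800583-28800641, minus strand): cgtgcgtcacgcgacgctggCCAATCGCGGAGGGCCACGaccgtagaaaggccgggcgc
PDIA6 (chr2:10812833-10812891, minus strand): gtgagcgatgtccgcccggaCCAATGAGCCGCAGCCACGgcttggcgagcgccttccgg
CALR (chr19:12938364-12938422, plus strand): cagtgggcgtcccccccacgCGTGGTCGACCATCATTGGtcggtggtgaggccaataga
CRELD2 (chr22:49918534-49918592, plus strand): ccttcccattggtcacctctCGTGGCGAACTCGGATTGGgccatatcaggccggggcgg
CANX (chr5:179698758-179698816, plus strand): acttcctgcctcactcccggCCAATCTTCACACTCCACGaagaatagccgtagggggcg
All 5 motifs began within 225 bases before the start, nearest in XBP1, where the motif began 52 bases before it. In CALR and CRELD2 the motif stood on the opposite strand. Of all 35116 windows, 27 held the motif, or 0.0769%.

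The second set holds ER stress element II, the letters ATTGG and CCACG with 1 base between them. In HYOU1 one of 2 copies overlaps the unfolded protein response element, TGACGTGG, and in HERPUD1 a C/EBP-ATF response element, TGATGNAA, lies upstream of it.
SDF2L1 (chr22:21642094-21642144, plus strand): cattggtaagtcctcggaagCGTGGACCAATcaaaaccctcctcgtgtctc
HYOU1 (chr11:119057254-119057413, minus strand): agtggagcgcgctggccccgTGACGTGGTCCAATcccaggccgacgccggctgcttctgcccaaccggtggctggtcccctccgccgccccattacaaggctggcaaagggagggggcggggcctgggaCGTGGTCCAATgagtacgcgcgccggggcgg
HERPUD1 (chr16:56931946-56932055, plus strand): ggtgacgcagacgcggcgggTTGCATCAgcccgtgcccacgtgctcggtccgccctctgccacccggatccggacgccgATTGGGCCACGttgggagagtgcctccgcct
ER stress element II was in 0.0541% of all windows and the unfolded protein response element in 0.729%. Among members, HYOU1 alone held the unfolded protein response element.

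The third set holds the C/EBP-ATF response element alone, a composite site bound by ATF4 with a C/EBP partner.
ASNS (chr7:97872449-97872496, minus strand): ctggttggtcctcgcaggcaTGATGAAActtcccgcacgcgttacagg
CHAC1 (chr15:40953242-40953289, plus strand): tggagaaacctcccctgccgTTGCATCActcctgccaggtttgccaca
CEBPG (chr19:33374051-33374098, plus strand): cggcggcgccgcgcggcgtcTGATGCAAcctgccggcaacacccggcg
ATF3 (chr1:212565196-212565243, plus strand): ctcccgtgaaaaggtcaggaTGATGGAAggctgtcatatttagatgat
These letters were also found just after an annotated start of SLC3A2 and of SLC7A1, so 7 members held them, HERPUD1 included. The motif is short, and 3.62% of all windows held it. A match describes letters only and is not a bound site.

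**Figure D1:**
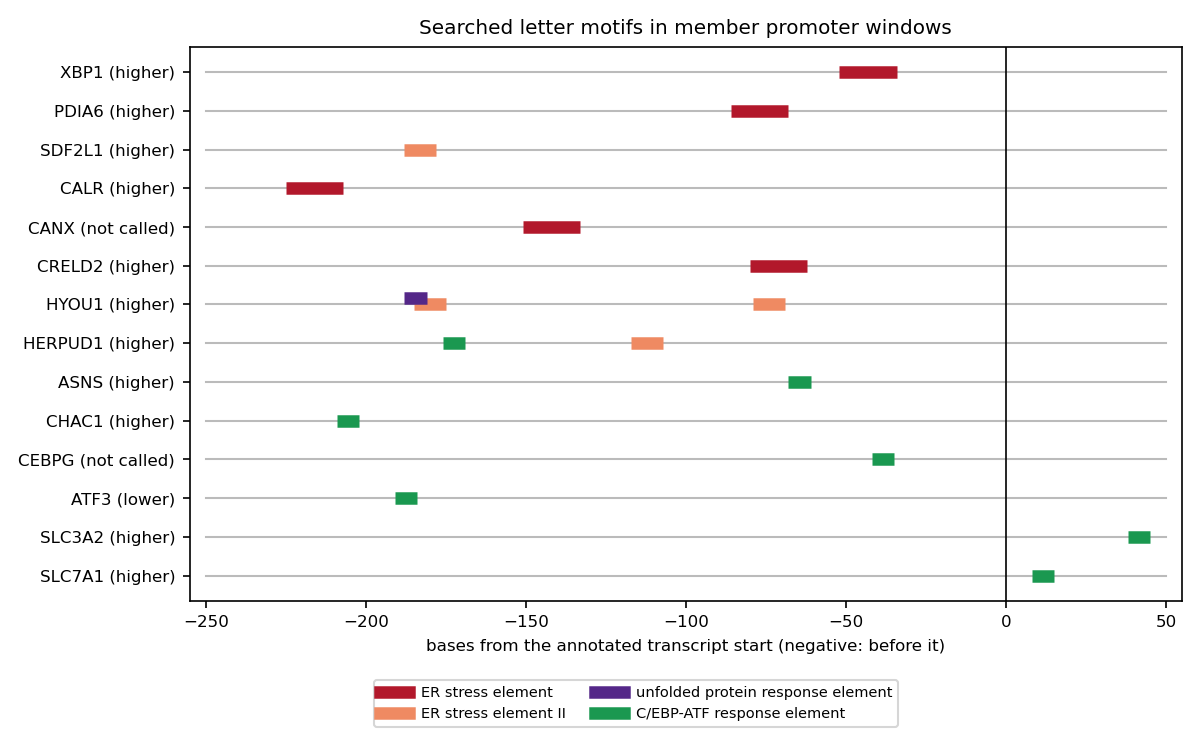
Positions of the searched motifs in 14 member promoter windows, as bases from the annotated transcript start on the x axis, with the call of each gene (KO against WT, adjusted p under 0.05) in brackets. Coloured blocks are motifs and grey lines are the windows; the 5 long ER stress elements lie in XBP1, PDIA6, CALR, CANX and CRELD2, of which CANX was not called.

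Levels are given in CPM, the usual unit of counts scaled to library size, here of estimated counts with TMM factors, and changes as log2 fold changes, positive where knockout is higher. The test was the quasi-likelihood F test of edgeR, p was adjusted by Benjamini-Hochberg over all 19558 genes, and a gene is called at an adjusted p under 0.05. A number alone in brackets after a gene or its levels is its log2 fold change, and ± gives the SD over the 3 samples of a group. The 6 libraries held 21179650 to 21405718 estimated counts each. ADPRHL1 averaged 6.59 ± 0.893 CPM in knockout and 80.9 ± 2.41 CPM in wild type (SD, n = 3 each). The libraries ranged from 5.81 to 7.565 CPM and from 79.42 to 83.69 CPM, so the ADPRHL1 level sorted them as their genotype labels do. Cell type markers differed between the groups as well. The counts of markers that follow are to be read beside all genes tested, of which 28.4% rose and 28.6% fell. All 17 cardiomyocyte markers fell, with sums of the deposited length-scaled values, read here as FPKM (fragments scaled by transcript length and depth) because the header names no unit, of 4370 to 4680 in knockout and 12000 to 12400 in wild type. Of 14 fibroblast markers 10 rose and 3 fell, with sums of 3140 to 3630 FPKM in knockout and 2230 to 2270 FPKM in wild type. Of 10 endothelial markers tested 8 rose and 1 fell (sums 77.5 to 86.9 FPKM in knockout and 41.2 to 42.8 FPKM in wild type), and of 13 endoderm and hepatic markers 10 rose (426 to 716 FPKM in knockout and 152 to 231 FPKM in wild type). Of 9 smooth muscle markers 3 rose and 6 fell (899 to 967 FPKM in knockout and 1460 to 1510 FPKM in wild type). Of 5 pluripotency markers tested 1 rose and 2 fell (2.08 to 2.30 FPKM in knockout and 3.25 to 3.48 FPKM in wild type). Of 8 epicardial markers 5 rose and 2 fell, and of 6 neural markers tested 1 rose and 4 fell. No marker of these lists was at 0 in every sample, and TNNT2, the cardiac troponin T gene that marks the labelled cell type, stood at 453.5 to 490.4 CPM in knockout and 1403 to 1540.0 CPM in wild type. Markers of other cell types gave DCN (fibroblast) at 309 ± 20.5 CPM in knockout and 80.3 ± 3.96 CPM in wild type, PECAM1 (endothelium) at 6.71 ± 1.24 CPM in knockout and 1.40 ± 0.266 CPM in wild type, and HNF4A (endoderm) at 5.64 ± 1.27 CPM in knockout and 1.64 ± 0.151 CPM in wild type. From the pluripotency list, POU5F1 was not called, at 0.885 ± 0.199 CPM in knockout and 0.519 ± 0.0942 CPM in wild type. The part of this shift in the results below was not tested, and in bulk RNA fewer cells of a type and less RNA per cell cannot be told apart.

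More of the stress response genes were higher in the knockout samples than all genes were. Of 41 members, 30 rose (73.2%), against 28.4% of all genes tested, and 4 fell (9.76%), against 28.6% of all genes tested. Because the list was drawn up with results known, these shares describe it and are not independent evidence of a direction. The median log2 fold change was 0.45 over the members and 0.0012 over all genes. In CPM, all 3 knockout samples lay above all 3 wild-type samples for 31 members, as they did for 31.9% of all genes, and below them for 4 members, as they did for 32.5% of all genes. The changes were mostly small: 5 members differed by 2-fold or more, 9 by 1.5-fold to 2-fold and 27 by less than 1.5-fold. Tested against a change of 1.5-fold in place of no change, 8 members passed, namely NUPR1, CEBPB, SLC7A11, SLC3A2, ALDH1L2, TRIB3 and PPP1R15A, which rose, and VLDLR, which fell. At that threshold 9.57% of all genes were higher and 7.08% lower.

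**Figure D2:**
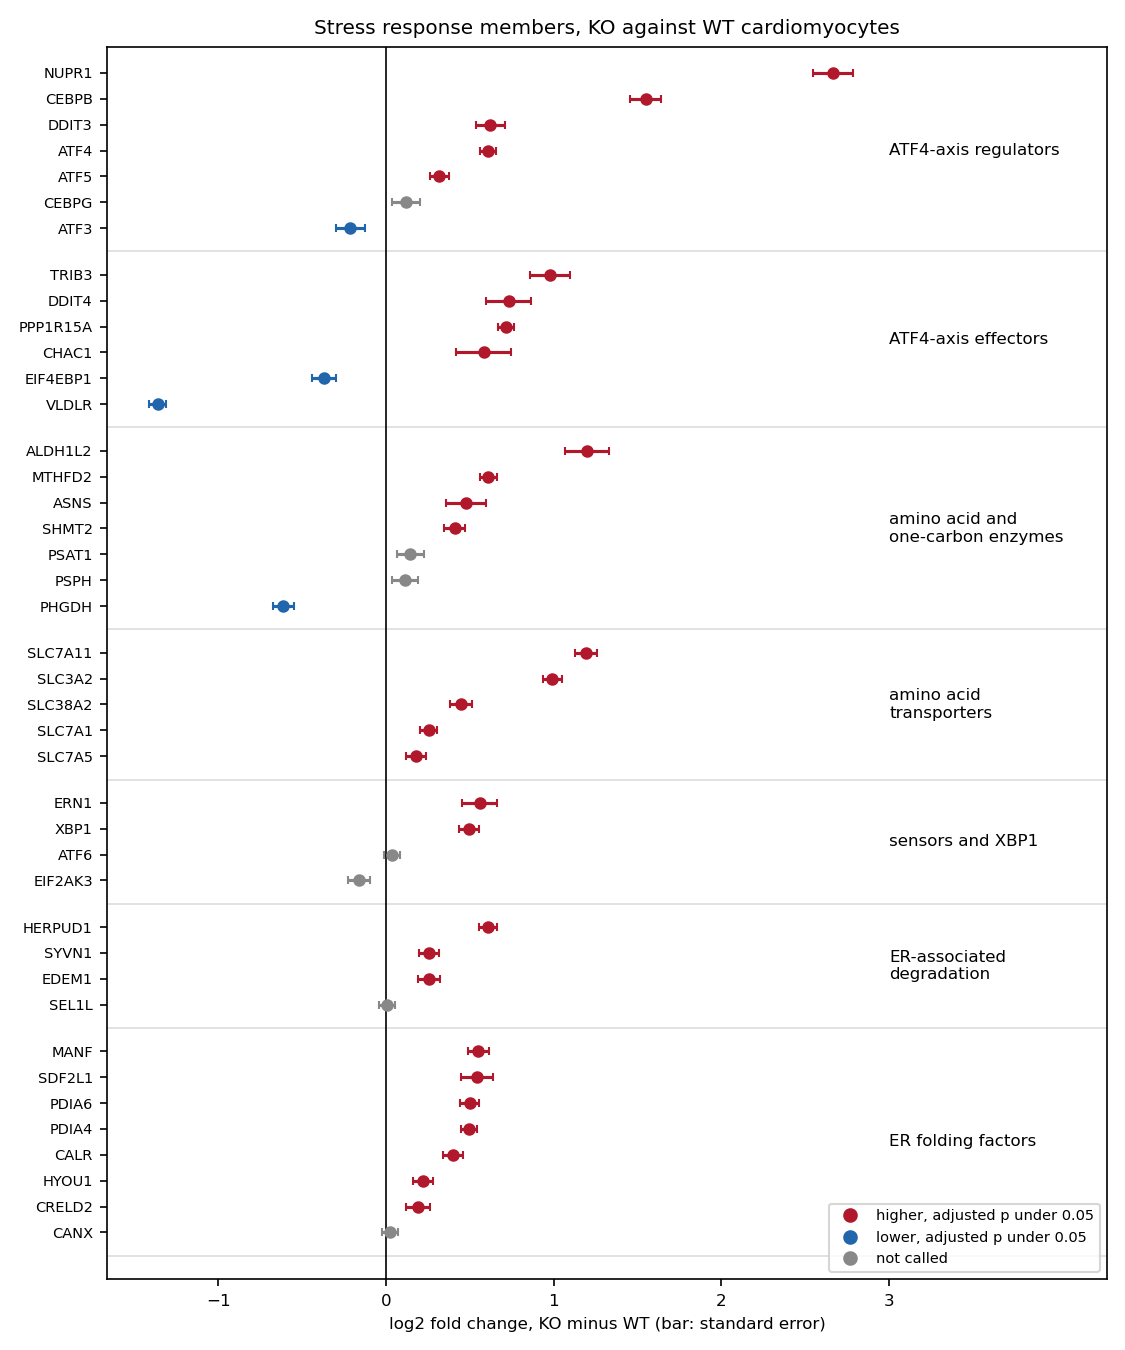
Log2 fold change of each of the 41 members, knockout minus wild type, on the x axis, with members grouped by role down the page; points are edgeR estimates and bars their standard errors. Red points (30) were called higher, blue points (4) lower and grey points (7) were not called; NUPR1 at 2.67 is the highest and VLDLR at -1.36 the lowest.

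For 35 members the length implied by count and FPKM differed by less than 5% between knockout and wild type. DDIT3, SLC7A11, ATF6, PSPH, ERN1 and SDF2L1 differed by more, so their size depends on the scale. DDIT3 had a log2 ratio of 0.62 in counts and 0.79 in FPKM, and SLC7A11 had 1.19 in counts and 1.34 in FPKM. Of the 41 members, 7 overlap a protein-coding gene in RefSeq (ATF5, DDIT3, SHMT2, MTHFD2, SYVN1, PDIA6 and CANX). The strand setting of the counting is not stated, so reads of overlapping genes could not be told apart, and the counts of these 7 are less certain. Counting every kind of RefSeq gene, 17 members overlap another gene. Among these, the long noncoding RNA CZ1P-ASNS spans 99.4% of ASNS and CEBPB-AS1 spans 70.5% of CEBPB, so these counts are less certain too. RefSeq also lists pseudogenes named after ASNS, ATF4, EIF4EBP1, MTHFD2, PSAT1, PSPH, SLC7A5 and XBP1, which makes these counts uncertain where the counting split shared reads.

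The transcription factors of the ATF4 axis come first. ATF4 itself (GRCh38.p14, chromosome 22, 39520559 to 39522686) rose by about 1.52-fold, with 397, 377 and 390.0 CPM in the knockout samples, against 261, 253 and 249.7 CPM in the wild-type samples (log2 fold change 0.61, SE 0.0456, adjusted p = 2.29e-07). Its 3 knockout values were close together and all above the wild-type values. DDIT3, which encodes CHOP, a factor linked to cell death in prolonged ER stress, stood at 36.9, 32.9 and 29.6 CPM in the knockout samples, against 21.6, 22.8 and 20.2 CPM in the wild-type samples (log2 fold change 0.62, SE 0.0861, adjusted p = 5.63e-05). The knockout samples varied more for DDIT3 than for ATF4 but did not overlap the wild-type samples.

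NUPR1, a small stress-induced chromatin protein gene, showed the largest fold change of all members. It stood at 19.0, 17.1 and 19.97 CPM in the knockout samples, against 2.60, 3.20 and 3.02 CPM in the wild-type samples, a 6.34-fold rise (log2 fold change 2.67, SE 0.119, adjusted p = 1.74e-09). CEBPB, a C/EBP factor that can pair with ATF4, stood at 32.6, 33.0 and 40.1 CPM in the knockout samples, against 11.9, 12.6 and 11.5 CPM in the wild-type samples, a 2.93-fold rise (log2 fold change 1.55, SE 0.0925, adjusted p = 2.6e-08). For both genes the lowest knockout sample lay far above the highest wild-type sample. ATF5, a relative of ATF4 that is under similar translational control, rose less (53.6 ± 0.803 CPM in knockout and 43.0 ± 2.29 CPM in wild type; 0.32). CEBPG, the other C/EBP partner on the list, averaged 36.2 ± 4.20 CPM in knockout and 33.3 ± 1.36 CPM in wild type and was not called (0.12, adjusted p = 0.236).

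ATF3, a repressor that ATF4 is known to induce, went the other way. It stood at 20.5, 18.6 and 22.1 CPM in the knockout samples, against 25.2, 21.7 and 24.0 CPM in the wild-type samples (log2 fold change -0.21, SE 0.0853, adjusted p = 0.0488). The highest knockout sample, at 22.1 CPM, lay above the lowest wild-type sample, at 21.7 CPM, so the groups overlapped. This call is the least steady of the list: it ended under 14 of the 18 alternatives, with log2 fold changes between -0.22 and -0.13 and adjusted p between 0.0514 and 1. Those 14 include leaving out knockout replicate 1 (adjusted p = 0.0859) or 2 (0.16) and wild-type replicate 1 (0.153) or 3 (0.103). Of the 7 regulators 5 rose (71.4%) and 1 fell (14.3%), against 28.4% and 28.6% of all genes tested.

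**Figure D3:**
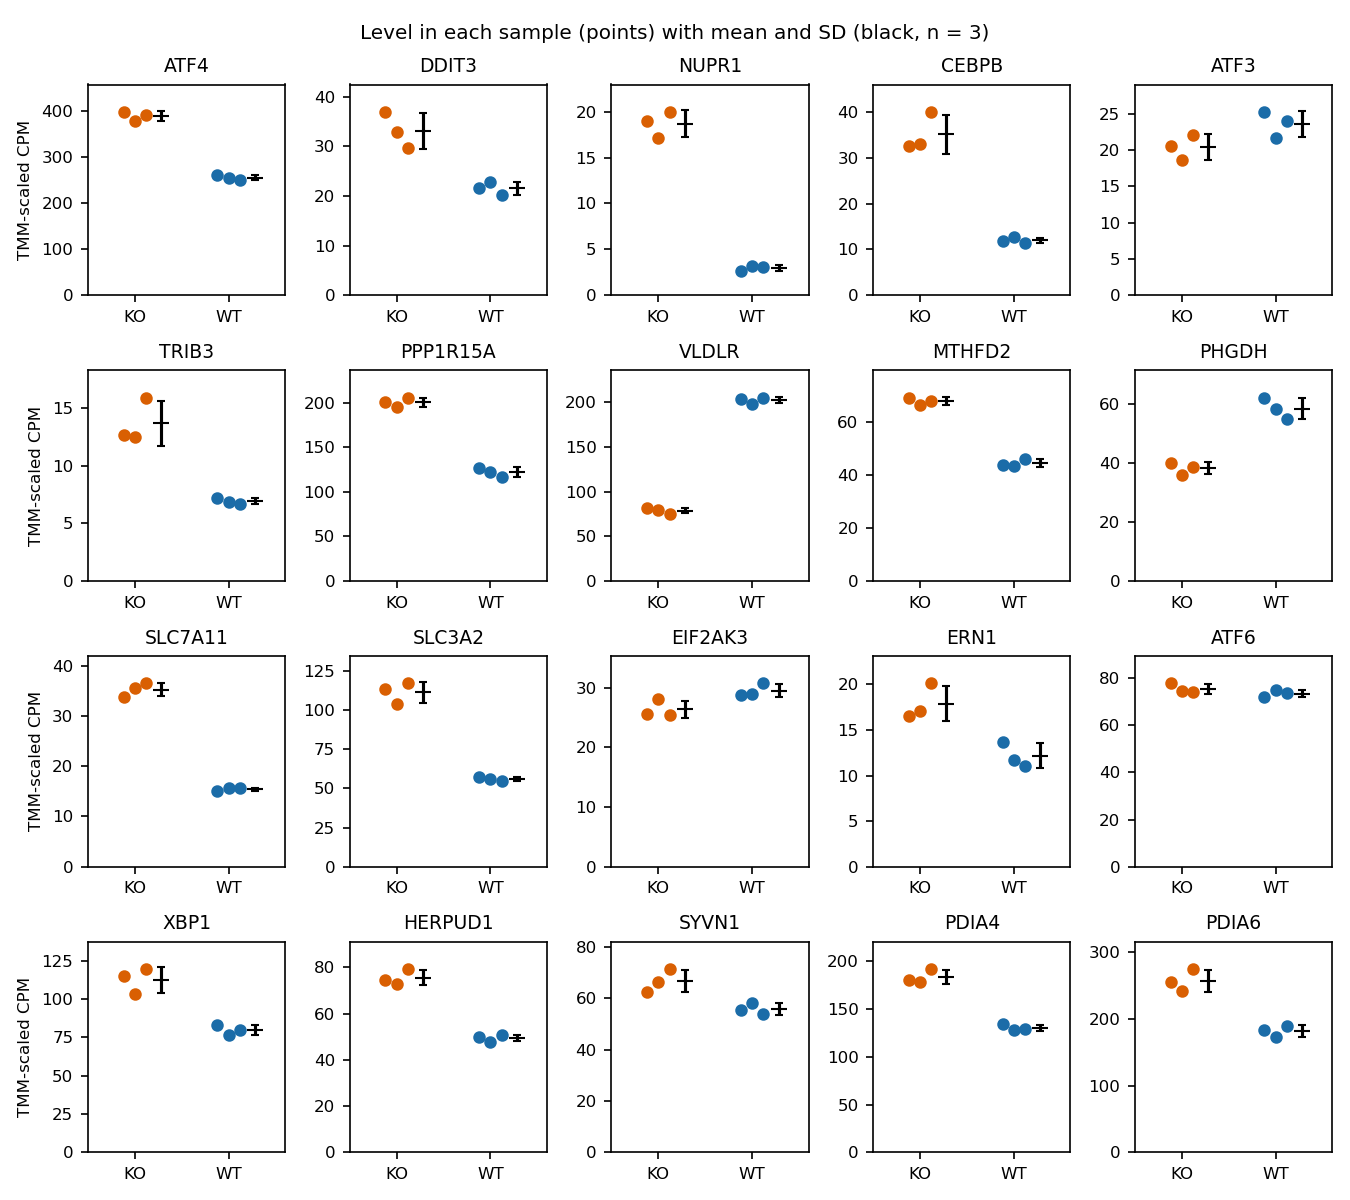
TMM-scaled CPM on the y axis, from 0, in each of 3 knockout (orange, left) and 3 wild-type (blue, right) samples for 20 members, with mean and SD in black. ATF4, NUPR1, CEBPB, SLC7A11 and SLC3A2 show knockout points above all wild-type points, VLDLR and PHGDH below them, and ATF3 and ATF6 overlap.

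Effectors and feedback genes of the axis moved both ways, 4 of 6 up (66.7%) and 2 down (33.3%). Among all genes tested 28.4% rose and 28.6% fell, so the share that fell was near that of all genes. PPP1R15A, which encodes GADD34, the inducible phosphatase subunit that removes phosphate from eIF2alpha, stood at 200.5, 195 and 205 CPM in the knockout samples, against 127, 123 and 117 CPM in the wild-type samples (log2 fold change 0.71, SE 0.0491, adjusted p = 1.02e-07). TRIB3, a pseudokinase gene that restrains ATF4 and CHOP, stood at 12.6, 12.5 and 15.9 CPM in the knockout samples, against 7.18, 6.88 and 6.70 CPM in the wild-type samples (log2 fold change 0.98, SE 0.119, adjusted p = 1.84e-05). In both genes every knockout sample was above every wild-type sample, and for TRIB3 knockout replicate 3 was the highest. Among lower-level genes, DDIT4, an inhibitor of mTORC1, averaged 9.12 ± 0.524 CPM in knockout and 5.49 ± 0.760 CPM in wild type (0.73), and CHAC1, an enzyme that degrades glutathione, averaged 5.14 ± 0.569 CPM in knockout and 3.43 ± 0.393 CPM in wild type (0.58). Both rose.

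VLDLR, a lipoprotein receptor that the PERK and ATF4 axis is known to induce in liver cells, fell instead. It stood at 81.9, 79.3 and 75.4 CPM in the knockout samples, against 204, 199 and 205 CPM in the wild-type samples (log2 fold change -1.36, SE 0.0491, adjusted p = 2.63e-10), the largest fall of any member. EIF4EBP1, a translational repressor that is an ATF4 target in mouse pancreatic beta cells, also fell, at 62.2, 57.1 and 61.9 CPM in the knockout samples, against 83.3, 81.3 and 69.2 CPM in the wild-type samples (log2 fold change -0.37, SE 0.0709, adjusted p = 0.000859). Neither gene's groups overlapped. The cardiomyocyte markers fell in the same samples (median -1.70, from -2.64 to -0.394). A link between that fall and either gene was not tested.

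Of the 7 enzyme genes of amino acid and one-carbon metabolism, 4 rose (57.1%) and 1 fell (14.3%). The shares over all genes tested were 28.4% and 28.6%. MTHFD2, a mitochondrial folate enzyme, stood at 69.2, 66.5 and 68.1 CPM in the knockout samples, against 43.8, 43.5 and 46.2 CPM in the wild-type samples (log2 fold change 0.61, SE 0.0518, adjusted p = 7.36e-07). ALDH1L2, which oxidises formyl-tetrahydrofolate in mitochondria, stood at 10.6, 10.7 and 8.93 CPM in the knockout samples, against 4.73, 3.96 and 4.49 CPM in the wild-type samples (log2 fold change 1.20, SE 0.132, adjusted p = 7.8e-06). SHMT2, the mitochondrial enzyme that takes a carbon from serine, averaged 75.0 ± 5.18 CPM in knockout and 56.5 ± 2.81 CPM in wild type (0.41). All 3 mitochondrial folate genes rose. PHGDH, the first enzyme of serine synthesis, stood at 40.1, 36.0 and 38.4 CPM in the knockout samples, against 62.0, 58.2 and 54.8 CPM in the wild-type samples (log2 fold change -0.61, SE 0.064, adjusted p = 4.88e-06), and the groups were well apart. The next enzymes of that route, PSAT1 at 21.6 ± 1.98 CPM in knockout and 19.5 ± 0.683 CPM in wild type (0.14, adjusted p = 0.149) and PSPH at 24.0 ± 2.22 CPM in knockout and 22.2 ± 0.507 CPM in wild type (0.11, adjusted p = 0.245), were not called. PSPH passed without knockout replicate 2 (0.18, adjusted p = 0.0459) and turned to -0.03 on the log2(FPKM + 1) scale. ASNS, which makes asparagine and carries the letters shown above, rose, at 15.5 ± 0.288 CPM in knockout and 11.1 ± 2.05 CPM in wild type (0.48); its wild-type samples ranged from 9.07 to 13.2 CPM.

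All 5 amino acid transporter genes rose, as did 28.4% of all genes tested. SLC7A11, the light chain of the cystine and glutamate exchanger, stood at 33.8, 35.6 and 36.5 CPM in the knockout samples, against 15.1, 15.6 and 15.6 CPM in the wild-type samples (log2 fold change 1.19, SE 0.0669, adjusted p = 1.45e-08). SLC3A2, the heavy chain that it shares with other transporters, stood at 113, 104 and 117 CPM in the knockout samples, against 57.5, 56.1 and 54.7 CPM in the wild-type samples (log2 fold change 0.99, SE 0.0557, adjusted p = 1.47e-08). For both genes the knockout samples were close together and far above every wild-type sample. SLC38A2, a sodium-coupled carrier of neutral amino acids, averaged 498 ± 30.0 CPM in knockout and 365 ± 28.4 CPM in wild type (0.45), and SLC7A1, a carrier of arginine and lysine, averaged 95.7 ± 2.37 CPM in knockout and 80.3 ± 2.25 CPM in wild type (0.25). SLC7A5, another light chain of SLC3A2 and the carrier of leucine, changed least, at 95.7 ± 7.16 CPM in knockout and 84.5 ± 2.23 CPM in wild type (0.18, adjusted p = 0.0192). That call ended without knockout replicate 3 (adjusted p = 0.0673), wild-type replicate 1 (0.0809) or wild-type replicate 3 (0.0861).

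Of the genes for the 3 ER sensors, ERN1 rose and the others were not called. ERN1 (GRCh38.p14, chromosome 17, 64039142 to 64130144) gave 16.5, 17.1 and 20.1 CPM in the knockout samples, against 13.7, 11.7 and 11.1 CPM in the wild-type samples (log2 fold change 0.56, SE 0.106, adjusted p = 0.000702), and all knockout samples were above all wild-type samples. XBP1 (GRCh38.p14, chromosome 22, 28794560 to 28800569), the target of IRE1 and a holder of the ER stress element, stood at 115, 103 and 119 CPM in the knockout samples, against 82.8, 76.3 and 80.0 CPM in the wild-type samples (log2 fold change 0.50, SE 0.0609, adjusted p = 1.99e-05). Counts per gene do not separate the spliced from the unspliced XBP1 mRNA. ATF6 (GRCh38.p14, chromosome 1, 161766320 to 161964070) gave 77.7, 74.4 and 74.1 CPM in the knockout samples, against 71.8, 75.0 and 73.6 CPM in the wild-type samples, with overlapping groups, and was not called (log2 fold change 0.038, SE 0.0484, adjusted p = 0.528). EIF2AK3 (GRCh38.p14, chromosome 2, 88556741 to 88628145) gave 25.6, 28.0 and 25.5 CPM in the knockout samples, against 28.8, 28.9 and 30.7 CPM in the wild-type samples (log2 fold change -0.16, SE 0.0675, adjusted p = 0.0583). It was not called either, and its 3 knockout samples lay just below all wild-type samples. Without knockout replicate 2, the highest of its knockout samples, EIF2AK3 passed as lower (-0.21, adjusted p = 0.0235). It also passed as lower with every library kept and no filter on low counts (-0.19, adjusted p = 0.0348, edgeR).

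Genes of ER-associated degradation, which returns misfolded proteins to the cytosol for the proteasome, rose in 3 of 4 cases. The share over all genes tested was 28.4%. HERPUD1, an ER membrane protein that organises the degradation complex, stood at 74.7, 72.9 and 79.2 CPM in the knockout samples, against 50.1, 48.0 and 50.6 CPM in the wild-type samples (log2 fold change 0.61, SE 0.0532, adjusted p = 9.3e-07). SYVN1, which encodes the ubiquitin ligase HRD1, stood at 62.5, 66.2 and 71.3 CPM in the knockout samples, against 55.4, 58.1 and 53.7 CPM in the wild-type samples (log2 fold change 0.26, SE 0.0598, adjusted p = 0.00269). The HERPUD1 groups were far apart, while the gap for SYVN1 was narrow, from 62.5 CPM in the lowest knockout sample to 58.1 CPM in the highest wild-type sample. EDEM1, which directs misfolded glycoproteins to disposal, averaged 33.3 ± 1.66 CPM in knockout and 27.9 ± 0.887 CPM in wild type (0.26). SEL1L, the partner that stabilises HRD1, averaged 101 ± 2.40 CPM in knockout and 100.3 ± 2.48 CPM in wild type and was not called (0.0054, adjusted p = 0.931).

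ER folding factors rose in 7 of 8 cases, with log2 fold changes between 0.19 and 0.55, and 28.4% of all genes tested rose. PDIA4, a protein disulphide isomerase, stood at 180.2, 179 and 192 CPM in the knockout samples, against 134, 128 and 129 CPM in the wild-type samples (log2 fold change 0.50, SE 0.0483, adjusted p = 2.62e-06). PDIA6, another isomerase and one that is known to act on IRE1, stood at 256, 242 and 275 CPM in the knockout samples, against 183, 173 and 189.9 CPM in the wild-type samples (log2 fold change 0.50, SE 0.0568, adjusted p = 1.03e-05). The groups did not overlap for either. MANF, an ER-resident survival factor that can be secreted, rose and averaged 64.9 ± 4.31 CPM in knockout and 44.4 ± 2.17 CPM in wild type (0.55). SDF2L1, a partner of ER chaperones, rose and averaged 12.9 ± 0.707 CPM in knockout and 8.83 ± 0.199 CPM in wild type (0.54). CALR, which encodes the lectin chaperone calreticulin, rose and averaged 659 ± 54.1 CPM in knockout and 499 ± 12.5 CPM in wild type (0.40). Changes were smaller for HYOU1, an ER chaperone and nucleotide exchange factor, at 203 ± 11 CPM in knockout and 174 ± 12.2 CPM in wild type (0.22), and for CRELD2, an ER-resident protein with isomerase activity, at 24.4 ± 1.73 CPM in knockout and 21.3 ± 0.627 CPM in wild type (0.19, adjusted p = 0.0435). This last call ended under 10 of the 18 alternatives, with adjusted p of 0.14 under DESeq2 and 0.0739 with the replicate number as a block, and between 0.0696 and 0.162 without knockout replicate 1 or 3 or any of the wild-type replicates. CANX, the membrane-bound lectin chaperone calnexin and the partner of CALR in glycoprotein folding, stood at 602, 621 and 572 CPM in the knockout samples, against 600.0, 577 and 587 CPM in the wild-type samples, with overlapping groups, and was not called (log2 fold change 0.025, SE 0.0479, adjusted p = 0.681).

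Set against the promoter letters, 7 of the 8 members with either ER stress element rose, and CANX was the exception. Among all 41 members 73.2% rose, and among all genes tested 28.4% rose and 28.6% fell. Outside the list, 26 tested genes held one of these elements, of which 10 rose and 6 fell. For the C/EBP-ATF letters, 5 of the 7 member genes that held them rose, CEBPG was not called and ATF3 fell. Of all 455 tested genes with these letters, members included, 140 rose and 140 fell. A link between letters and change was not tested.

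Sorted by branch, with each gene placed once under the sensor it is best known for although many answer to more than 1, 18 of 26 genes of the ATF4 branch rose and 4 fell (median 0.46). In the XBP1 branch all 6 genes rose (median 0.50), with fold changes between 0.26 and 0.56. In the ATF6 branch 6 of 9 rose and 0 fell (median 0.22), and ATF6, CANX and SEL1L were the genes not called. Of all genes tested, 28.4% rose and 28.6% fell. Against a change of 1.5-fold, 7 of 26 genes of the ATF4 branch passed as higher and 1 as lower, 0 of 6 genes of the XBP1 branch passed, and 0 of 9 genes of the ATF6 branch passed. At that threshold 9.57% of all genes were higher, and counts in lists this short cannot decide whether the branches differ. The branches were not tested against each other.

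**Figure D4:**
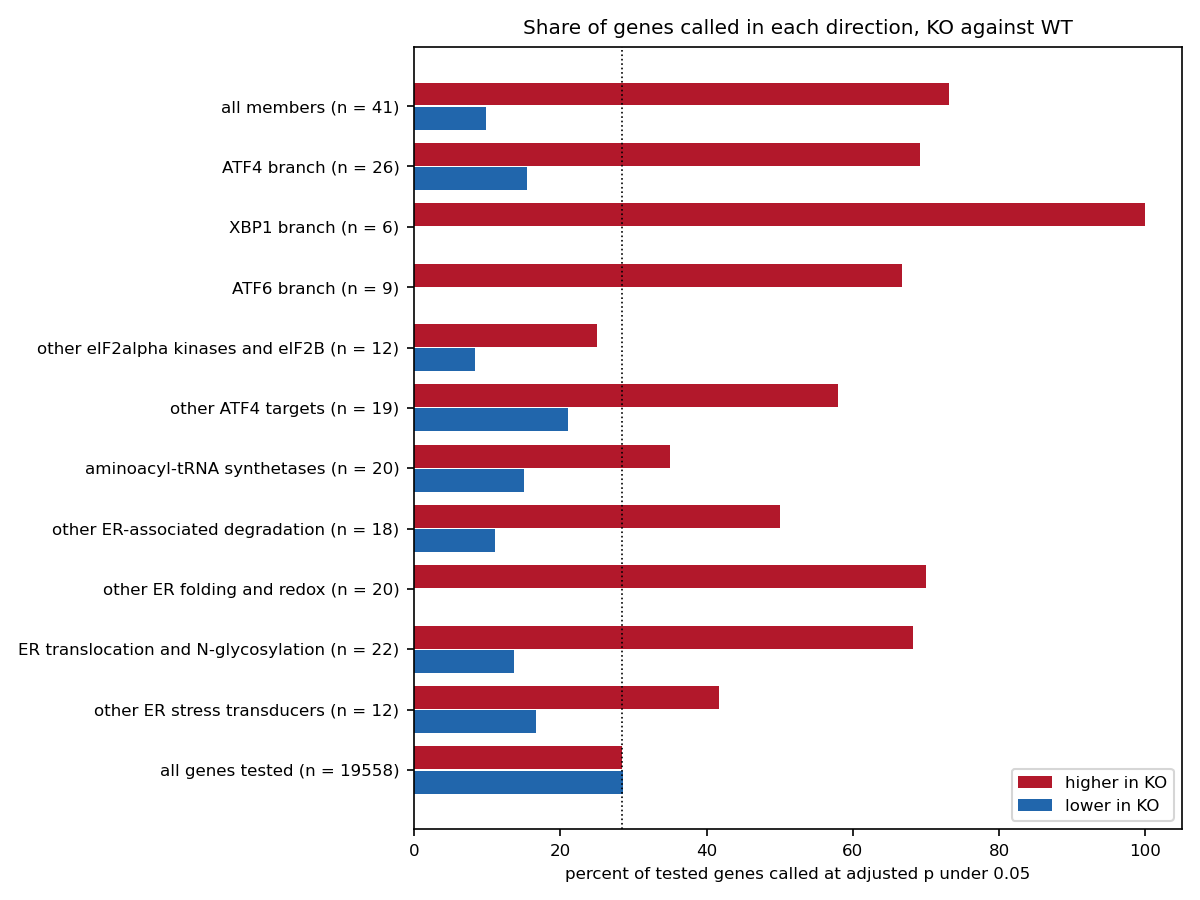
Percent of tested genes called higher (red) or lower (blue) in knockout on the x axis, for the 41 members, their 3 branches, 7 lists of other pathway genes and all 19558 genes tested (bottom). Members were higher in 73.2% of cases against 28.4% of all genes, marked by the dotted line.

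Per length, the members spanned more than 2 orders of magnitude, so the changes fall on very different amounts of mRNA. On the FPKM scale CALR had the highest level, at 349 ± 24.3 in knockout and 261 ± 6.49 in wild type (SD, n = 3 each). ATF4 came next, at 268 ± 4.61 in knockout and 173 ± 3.66 in wild type, and CANX, at 170.5 ± 10.7 in knockout and 167 ± 2.43 in wild type, followed. In wild type the SD ranges of ATF4 and CANX overlapped only at their ends. At the low end, ALDH1L2 had 1.48 ± 0.196 FPKM in knockout and 0.650 ± 0.110 FPKM in wild type, and ERN1 had 1.86 ± 0.221 FPKM in knockout and 1.33 ± 0.189 FPKM in wild type. NUPR1, 35th of 41 in wild type at 3.49 ± 0.387 FPKM, stood at 22.5 ± 1.42 FPKM in knockout. Summed over the 8 folding factors, the level was 843.9, 844.8 and 895.7 FPKM in the knockout samples, against 687.5, 665.6 and 671.3 FPKM in the wild-type samples, a ratio of 1.28. The 5 transporters summed to 193 ± 8.15 FPKM in knockout and 128 ± 5.90 FPKM in wild type, a ratio of 1.51. These sums, like the marker sums above, carry no TMM factor. FPKM summed over all rows was itself higher in every knockout library (387300 to 401500) than in every wild-type library (366200 to 371100).

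**Figure D5:**
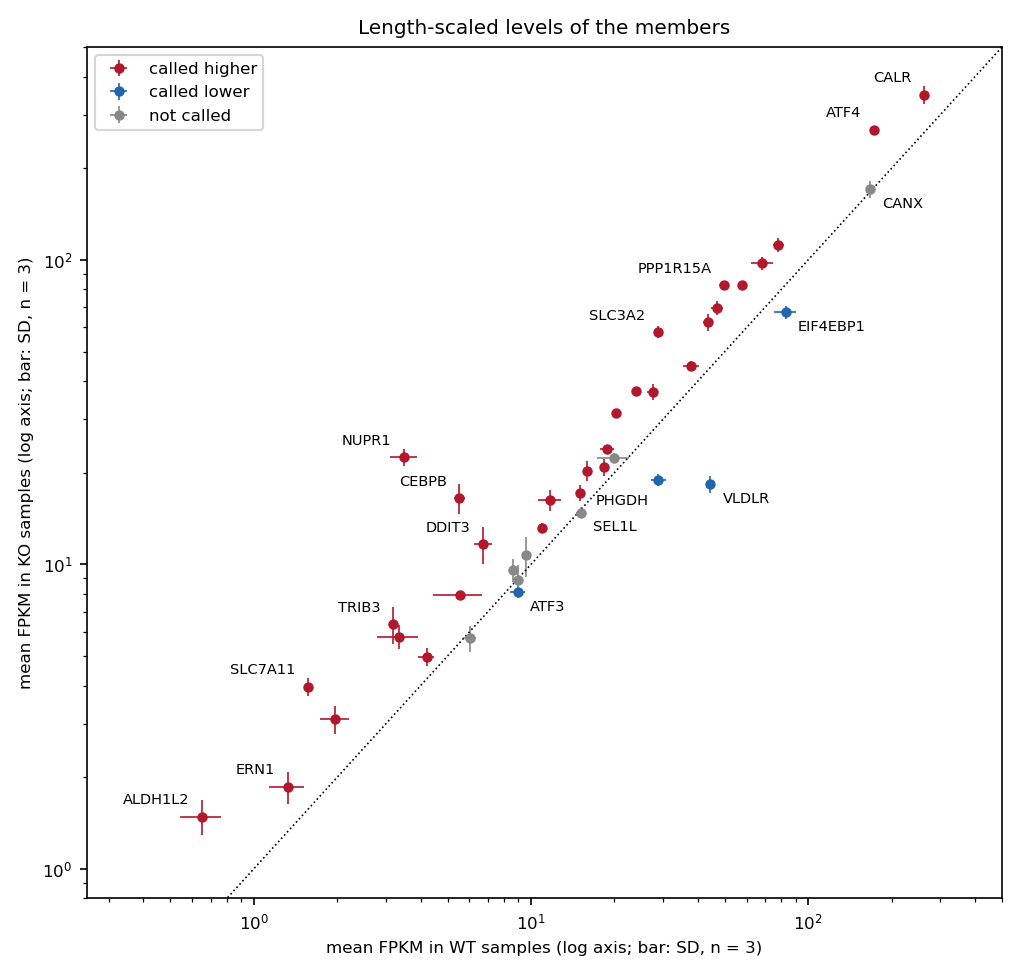
Mean FPKM of each member in knockout samples (y axis) against wild-type samples (x axis), both on log axes, with SD bars (n = 3); the dotted line marks equal levels. NUPR1 and CEBPB lie farthest above the line and VLDLR farthest below it, while CALR and ATF4 have the highest levels.

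Other genes of the same pathways were taken from 7 further lists of 124 genes, of which 123 were tested. These lists too were chosen with earlier results of these data known, so their counts are not independent evidence of a direction. Of the 123, 64 rose (52.0%) and 15 fell (12.2%), with a median of 0.24. Of all genes tested, 28.4% rose and 28.6% fell. Other ER folding and redox genes rose in 14 of 20 cases and fell in 0, led by PDIA5, a disulphide isomerase known to act on ATF6, at 102 ± 4.60 CPM in knockout and 41.3 ± 1.43 CPM in wild type (1.31). In ER translocation and N-glycosylation 15 of 22 genes rose and 3 fell. SRPRB, a subunit of the receptor for the signal recognition particle, rose (0.73), and STT3B, a catalytic subunit of the oligosaccharyltransferase, fell (-0.28).

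Among 18 other genes of ER-associated degradation 9 rose, including UFD1 (0.49), a cofactor of the VCP segregase, and 2 fell, including UBXN4 (-0.33). Other ATF4 targets moved both ways, 11 of 19 up and 4 down, with VEGFA, the vascular growth factor gene, at 222 ± 1.95 CPM in knockout and 131 ± 2.71 CPM in wild type (0.76), and CEBPD, a further C/EBP factor, at 48.1 ± 3.96 CPM in knockout and 69.6 ± 1.86 CPM in wild type (-0.53). Of 20 aminoacyl-tRNA synthetases, many of them ATF4 targets, 7 rose, including WARS1 (0.57), and 3 fell, including EPRS1 (-0.32), with a median of 0.053. As a share 35% rose, near the 28.4% of all genes. The kinases and factors of the eIF2 step gave 3 higher and 1 lower of 12, close to the background share of 28.4% for higher calls. EIF2B2, a subunit of the exchange factor for eIF2, rose (0.45), and EIF2AK2, the kinase PKR that senses double-stranded RNA, fell (-0.22). Of 12 other ER stress transducers 5 rose, including MAP3K5 (1.69), a kinase that acts downstream of IRE1, and 2 fell, including CREB3L2 (-0.38), a membrane-bound relative of ATF6. The higher share of these 12 was 41.7%, against 28.4% of all genes.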

How the data were processed

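The deposited table gives, for each gene and sample, an estimated count and a length-scaled value. Per the file headers these are read counts and expression values with no unit named; the expression values are read here as FPKM, from their ratio to the deposited counts. Library steps, per the labels' protocols, were Trizol extraction, oligo-dT selection and random priming. The build hg38 is named, with no role, in the submitters' processing notes; which aligner, counter, strand setting and annotation were used is not stated in the labels or headers. The authors' group mean columns were checked and not used further.

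Estimated counts were rounded to whole numbers, kept where filterByExpr passed them (at least 10 counts, at least 15 in total), and after TMM scaling tested with edgeR 4.0.16 (robust quasi-likelihood fit, genotype as the only term) in R 4.3.3, with Benjamini-Hochberg adjustment over 19558 genes. Standard errors are the log2 fold change divided by the square root of F, an approximation. Rows without an Entrez ID, 3955 unnamed gene models, held 12.9% to 13.4% of counts in knockout and 14.3% to 14.9% in wild type and stayed in the fit. A total of 3 counts corresponds to 0.140 to 0.142 CPM. By the naming rule, values in every sample are given for ATF4, DDIT3, XBP1 and the 3 sensors. In each role they are also given for the 2 higher and 2 lower calls of smallest p. Each pathway list adds 1 of each call. CANX is given in every sample too, outside that rule. The members and lists were chosen with earlier results of these data known. Scripts were tested on simulated data. Alternatives used total-count, RLE and upper-quartile scaling, the tools DESeq2 1.42.0 and limma 3.58.1 (voom and log2 FPKM), other filters, a 1.5-fold threshold, a replicate block and each replicate left out. Motifs were matched as exact letters on both strands.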

Additional observations from a re-analysis of the deposited data

How the results depend on the processing

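Over 18 alternatives and 41 members, 671 of 738 values kept their direction and their side of the threshold; 53 lost their call, 4 gained one and 10 changed sign. Of 34 called members, 30 kept their call under every alternative other than the 1.5-fold threshold, and ATF3, SLC7A5, EDEM1 and CRELD2 did not. EDEM1 ended on log2(FPKM + 0.1) (adjusted p = 0.0506, limma). CEBPG passed without knockout replicate 3 (0.21, adjusted p = 0.0160, edgeR).

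Tested against 1.5-fold, 7 members were higher and 1 lower, with 7 and 1 in the ATF4 branch and 0 higher in the XBP1 and ATF6 branches. Other pathway genes then gave 8 higher and 0 lower, and all genes 1872 higher and 1385 lower. A stricter threshold lowers such counts by construction. The sign changes were all in uncalled members. PSPH turned to -0.0277 on log2(FPKM + 1) and -0.0312 on log2(FPKM + 0.1). SEL1L turned to -0.0235 without a filter, -0.0295 on log2(FPKM + 1), -0.0313 on log2(FPKM + 0.1), and, with 1 replicate left out, ranged from -0.0214 (without wild-type replicate 2) to 0.022, with -0.0129 without knockout replicate 1 and -0.00232 without knockout replicate 2. CANX turned to -0.00418 without a filter and ranged from -0.00585 (without knockout replicate 2) to 0.054 with 1 replicate left out. The cause was not tested. The largest shift that a scaling gave to the median of all genes was 0.0344. Without a filter, the median over the genes that pass the filter was -0.0276, against 0.00115 with it.

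With 1 replicate left out, higher and lower members ranged from 28 to 31 and from 3 to 4, in the ATF4 branch from 17 to 19 and from 3 to 4, in the XBP1 branch 6 and 0, and in the ATF6 branch from 5 to 6 and 0. Other pathway genes ranged from 55 to 65 higher and 12 to 16 lower, and all genes from 4978 to 5240 higher and 5084 to 5416 lower. Same-numbered samples did not deviate together (correlations 0.0225, -0.00806 and -0.0135), so no pairing by number was seen in the counts. Whether same-numbered samples were grown or processed together is not stated. With the replicate number as a block, 29 members were higher and 4 lower, 18 and 4 in the ATF4 branch, 6 and 0 in the XBP1 branch and 5 and 0 in the ATF6 branch.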
